A study of Mus musculus with 40 samples.

Results

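The 10 genes described here encode the contractile and calcium-handling proteins of cardiac muscle, and they were followed in RNA from mouse lung. They are Myh6, Tnnt2, Tnni3, Nppa, Actc1, Myl7, Myl4, Sln, Ryr2 and Mybpc3, and were chosen by name from the 37310 genes of the expression table. The lung of the mouse contains cardiac muscle, because the wall of the pulmonary veins carries a sleeve of striated cells that continues from the left atrium into the lung. These cells use the atrial forms of several sarcomere proteins, and in mice atrial myocytes are the main source of the hormone that Nppa encodes. A piece of lung that includes more vein wall therefore holds more of these transcripts, and in bulk RNA a smaller number of such cells and less RNA per cell cannot be told apart.

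The samples came from SWR/J and A/J mice in a model of squamous lung lesions, in which the carcinogen N-nitrosotris-(2-chloroethyl)urea (NTCU) is applied to the skin. RNA came from whole lung sections or from tissue dissected under the microscope with a laser (laser capture microdissection, LCM), and a whole lung sample carries the worst grade seen in its section. Of 40 samples, 25 passed quality control. The 7 normal samples came from animals given the acetone vehicle and no NTCU (SWR/J: 1 LCM and 3 whole lung; A/J: 2 LCM and 1 whole lung). The 5 samples with mild dysplasia were all SWR/J, at a total of 15 µmol NTCU (3 LCM and 2 whole lung). The 13 high-grade samples joined moderate/severe dysplasia (6 SWR/J at 25 or 30 µmol, 3 A/J at 14 µmol), severe dysplasia (2 SWR/J at 50 µmol), and 1 CIS and 1 SCC tumor sample (A/J, 20 µmol). Histology and NTCU dose cannot be told apart in this design. The labels do not say which samples share an animal, so the p-values measure the spread between samples.

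Per sample, the expected counts added up to 2667387 at the lowest and 16534728 at the highest, and the median transcript integrity number (TIN, a measure of how evenly reads cover transcripts) ran from 21.7 to 75.1. For 2 of the 25 samples the labels disagree about the grade. Normal A/J LCM replicate 2 is elsewhere described as mild dysplasia, and mild dysplasia SWR/J LCM replicate 3 as normal histology. Results are given with both samples, and without them 0 of the 10 genes passed the test in each of the 7 comparisons, as with them. Levels are log2 CPM (counts scaled to a common library size) after TMM scaling with a prior count of 2, so that a gene without a read lies at -2.22. The tests are edgeR quasi-likelihood tests over the 15630 genes that passed the filter on low values, adjusted for strain, sample type and median TIN, and a gene is called at a Benjamini-Hochberg adjusted p under 0.05. All 10 genes passed the filter.

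Markers of atrial and ventricular muscle were looked at first. Mybphl, which encodes a myosin-binding protein found in the atria, followed the 10 genes more closely than any other gene did. Its median was 9 counts, with no count in 8 of the 25 samples. Atrial genes were among the 10 by choice, so this is no separate check of the atrial type. The defining genes of ventricular muscle, Myl2 (ventricular regulatory light chain) and Irx4 (a ventricular transcription factor), were close to 0, each with a median of 1 count per sample and a highest value of 60 and 13.1 counts. The other ventricular markers, Myl3 and Myh7, were detected, with medians of 111 and 101.1 counts, and both are also genes of slow skeletal muscle. Over the 25 samples Myh7 followed Myh6 (Pearson's r = 0.744), with which it shares sequence. The kind of muscle that gave the Myh7 and Myl3 reads was not tested. Some genes of the atrial and nodal program were scarce. Nkx2-5, a cardiac homeobox gene, had no count in 17 of the 25 samples, and Hcn4, the pacemaker channel, had none in 18. Kcnj3, an atrial potassium channel subunit, had a median of 3 counts. Their highest values were 46, 16 and 207.1 counts. Other regulators were detected, and 6 of 13 cardiac and atrial transcription factors passed the filter, among them Tbx5 (median 26 counts) and Isl1 (median 20). These genes alone do not separate pulmonary vein muscle from the atrium of the heart.

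The thick filament is represented by 4 genes. Myh6 (Ensembl ENSMUSG00000040752, NCBIM37 chr14:55560758-55585764, minus strand, 39 exon blocks) encodes the alpha myosin heavy chain, the motor of the adult mouse heart. Its reads need care, because 22.1% of the 50-base windows in its coding transcripts also occur in another gene, mostly in Myh7, and RSEM divides such reads between the genes. Myl7 (chr11:5796640-5798785, minus strand) and Myl4 (chr11:104411977-104457067, plus strand) encode the regulatory and the essential light chain of atrial myosin. Mybpc3 (chr2:90958301-90976673, plus strand) encodes the cardiac myosin-binding protein C, which lies along the thick filament. The thin filament is represented by Actc1 (chr2:113873018-113879284, minus strand), the cardiac alpha actin, Tnnt2 (chr1:137737452-137748837, plus strand), the cardiac troponin T, and Tnni3 (chr7:4469907-4475831, minus strand), the cardiac troponin I. Actc1 and Myl4 have annotated genes on the opposite strand within their bounds, and Gm13054 overlaps Nppa on the opposite strand. The library kit does not mark strand, so reads of such pairs cannot be told apart where they overlap. Calcium handling is represented by Ryr2 (chr13:11645370-12199212, minus strand), the release channel of the sarcoplasmic reticulum, and Sln (chr9:53698058-53701651, plus strand), the sarcolipin peptide that inhibits the calcium pump. Nppa (chr4:147374831-147376188, plus strand) encodes atrial natriuretic peptide.

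Per kilobase of the longest coding transcript, the small and abundant proteins led. The median over the 25 samples was 60.5 CPM per kb for Sln and 55.5 for Actc1, followed by Myl4 (23.3), Myl7 (21.5), Tnnt2 (16.3) and Tnni3 (8.53). Myh6 followed with 2.40 CPM per kb, Nppa with 1.90, Mybpc3 with 0.295 and Ryr2 with 0.146. Nppa was low at its median and high at its maximum, which was 505.9 CPM per kb, above the maximum of 322.2 for Myl4 and of 132.8 for Myh6. Summed over the 10 genes, the level ran from 20.5 CPM in CIS A/J whole lung replicate 1 to 2460 CPM in mild dysplasia SWR/J whole lung replicate 1. The medians of this sum were 170 CPM in normal samples (range 120.9 to 332.3), 549.1 CPM in mild dysplasia (71.8 to 2460) and 249.5 CPM in high-grade samples (20.5 to 1337). The order of normal and high-grade samples rested on Actc1 and Sln. For the sum of the other 8 genes, a split chosen after the values were seen, the medians were 135.5 CPM in normal samples (33.2 to 233.4), 380.9 CPM in mild dysplasia (24.0 to 2053.9) and 36.7 CPM in high-grade samples (12.9 to 1189.3). On both sums the lesion samples reached above and below the range of the normal samples.

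**Figure D1:**
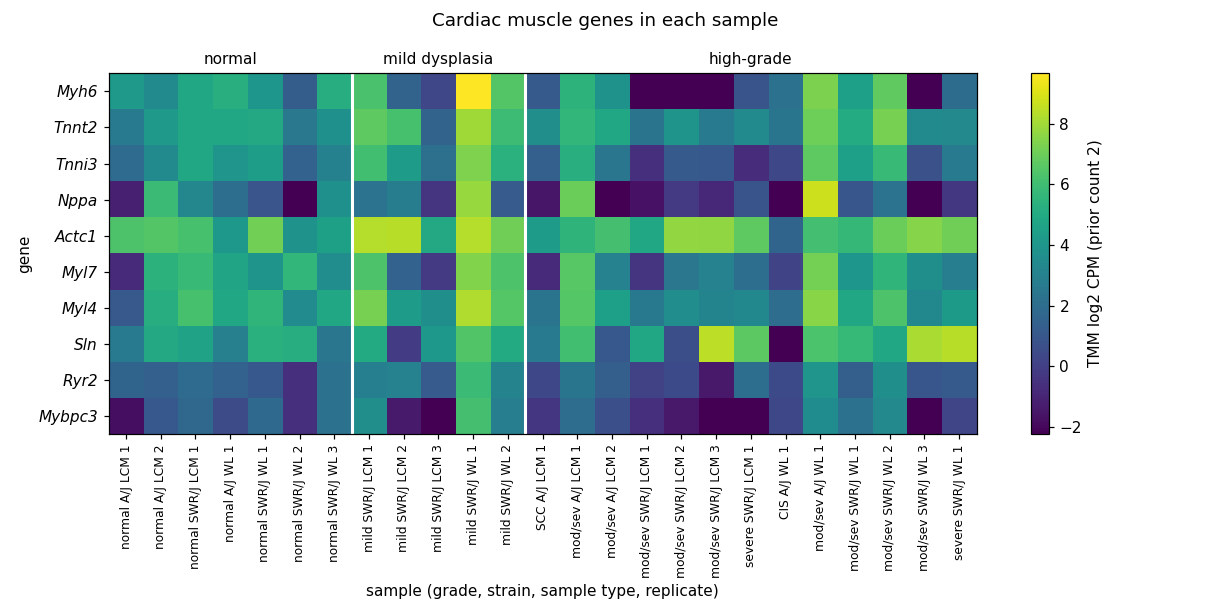
Level of each of the 10 cardiac muscle genes (rows) in each of the 25 samples (columns, grouped by histology and then by sample type; WL, whole lung), as TMM log2 CPM with a prior count of 2 in color. Mild dysplasia SWR/J whole lung replicate 1 is bright in every row, whereas the dark cells of Myh6 at -2.22 mark 4 high-grade SWR/J samples without a Myh6 count.

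All of these genes varied widely. The SD over the 25 samples was 2.26 log2 CPM at the median of the 10 genes, against 0.725 at the median of all genes tested. Myh6 had an SD of 3.26, more than 99.35% of the genes tested, and its range of 11.88 log2 units is a 3761-fold difference. Nppa (SD 3.24) and Sln (SD 2.65) came next, and Ryr2 varied least with an SD of 1.54, still above 88.3% of all genes. Histology, strain, sample type and median TIN accounted for less than the full spread. The share of variance left after fitting them was 47.7% for Myh6, 51.6% for Mybpc3, 79.97% for Nppa and 80.7% for Sln, and 55.1% at the median of all genes. These shares make no allowance for the number of fitted terms. With that allowance the SD left was 3.25 for Nppa and 2.68 for Sln, no lower than before the fit. It was 2.53 for Myh6 and 1.81 for Mybpc3, against 3.26 and 2.25 before the fit. Most of the spread in Nppa and Sln was therefore not accounted for by this fit. The fit joins the grades within high-grade samples and lets strains differ equally in all histology groups. Spread between unlike samples can thus remain in what is left. Within high-grade samples, Sln was at -2.22 in the CIS and 2.70 in the SCC tumor sample, and at 6.675 and 8.39 in severe dysplasia.

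The highest values came from a few libraries. Mild dysplasia SWR/J whole lung replicate 1 held the highest level of 7 of the 10 genes, and all 10 lay above every normal sample there. In moderate/severe dysplasia A/J whole lung replicate 1, 9 of the 10 lay above every normal sample. The number was 8 in both moderate/severe dysplasia A/J LCM replicate 1 and mild dysplasia SWR/J LCM replicate 1, and 7 in mild dysplasia SWR/J whole lung replicate 2. At the other end, 4 of the 10 lay below every normal sample in CIS A/J whole lung replicate 1 and 4 in moderate/severe dysplasia SWR/J LCM replicate 3. High and low libraries thus occurred within the same histology. Median TIN was 75.1, the highest of all, in mild dysplasia SWR/J whole lung replicate 1, but 39.5 in mild dysplasia SWR/J LCM replicate 1. It was 55.8 in CIS A/J whole lung replicate 1 and 39.1 in moderate/severe dysplasia SWR/J LCM replicate 3.

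Mild dysplasia was compared with normal to ask whether the first grade of lesion differs in these genes. All 10 genes had a positive fitted difference, but 0 of 10 passed the test, while 12.4% of all genes did. Myh6 was at 6.25, 1.58 and 0.31 log2 CPM in mild LCM replicates 1, 2 and 3, and at 9.66 and 6.50 in mild whole lung replicates 1 and 2. The 7 normal samples lay between 1.27 and 5.26, with their median at 4.17. Thus 3 of the 5 mild samples lay above and 1 lay below all normal samples, and the groups overlapped. The mean was 4.86 ± 3.84 in mild dysplasia (SD, n = 5) and 4.03 ± 1.39 in normal samples (SD, n = 7). The fitted log2 difference was 2.66 (SE 1.32), with an adjusted p of 0.165 in edgeR.

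Tnnt2 and Ryr2 came closest to the threshold in this comparison. Tnnt2 was at 6.71, 6.19 and 1.57 log2 CPM in the 3 mild LCM samples and at 7.99 and 5.91 in the 2 mild whole lung samples, against 2.55 to 4.95 (median 4.18) in normal samples. The 4 higher mild samples lay above every normal sample, whereas mild LCM replicate 3 lay below every one. The fitted log2 difference of Tnnt2 was 2.54 (SE 0.87), with an edgeR adjusted p of 0.0562. Ryr2 was at 2.91, 3.05 and 1.21 in mild LCM samples and at 5.89 and 3.07 in mild whole lung samples, against -0.63 to 2.26 (median 1.503) in normal samples. Its fitted log2 difference was 2.37 (SE 0.80), with an edgeR adjusted p of 0.0542. Here too 4 of the 5 mild samples exceeded the normal range, and mild LCM replicate 3 was inside it.

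The other myofilament genes had wider errors. The fitted log2 difference was 2.57 (SE 1.15) for Mybpc3 and 2.29 (SE 1.07) for Tnni3. Both had an unadjusted p under 0.05, as did Tnnt2 and Ryr2, which makes 4 of 10 genes against 32.7% of all genes. Actc1 had 1.32 (SE 0.81), Myl7 1.18 (SE 1.26), Myl4 1.83 (SE 0.92) and Nppa 2.10 (SE 1.64), while Sln was close to 0 with 0.13 (SE 1.54). The median fitted difference was 2.19 over the 10 genes and -0.02 over all genes. A single library decided the sign for 3 of the genes. Without mild dysplasia SWR/J LCM replicate 1, the fitted log2 difference was -0.37 for Myh6, -1.53 for Mybpc3 and -0.81 for Myl7, and no adjusted p was under 0.05 among these 3. Sln, near 0, turned negative in 8 of the fits that left out 1 sample. Within LCM samples alone the fitted difference of Myh6 was -0.19, and within whole lung samples alone -0.16, with 0 of all genes called in either subset. DESeq2 called 2 of the 10 genes, Tnnt2 (adjusted p 0.022) and Ryr2 (adjusted p 0.0246). In edgeR both also passed without moderate/severe dysplasia SWR/J whole lung replicate 2 (adjusted p 0.0287 and 0.0317) or without CIS A/J whole lung replicate 1 (0.0462 and 0.0475), and 1 of them passed in 4 other fits that left out 1 sample.

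Among other genes of the cardiomyocyte, some that lung cells also express were higher in the mild samples, and the lists differed in direction. Of 21 other sarcomere and cardiac structure genes tested, 2 rose and none fell, a smaller share than the 12.4% called among all genes. These were Nexn, which encodes an actin-binding protein of the Z-disc (log2 difference 2.05, SE 0.50, edgeR adjusted p 0.0215), and Ankrd1, which encodes a stress-responsive ankyrin repeat protein (3.06, SE 0.99, 0.0470). Of 9 calcium-handling genes tested, 3 rose: Atp2a2, the calcium pump that sarcolipin and phospholamban inhibit (1.66, SE 0.32, 0.0128), Asph (1.90, SE 0.36, 0.0128) and Jph2, a junctional membrane protein (1.80, SE 0.58, 0.0474). Pln, the phospholamban gene, had 2.73 (SE 1.11) and an edgeR adjusted p of 0.0961. Tbx5, a transcription factor of heart and lung mesenchyme (2.39, SE 0.79, 0.0490), and Kcnq1, a potassium channel (1.82, SE 0.59, 0.0472), rose from the lists of 6 transcription factors and of 6 channel and gap junction genes tested. With lists this short, 1 call is not set apart from the 12.4% of all genes. Of 13 genes of cardiac metabolism and energy none passed, 8 had negative fitted differences and the median was -0.38. In the smooth muscle list 1 of 9 genes rose (Mylk), in the alveolar epithelial list 1 of 6 (Pdpn), in the endothelial list 0 of 8 and in the airway epithelial list 0 of 7. All 6 alveolar, all 8 endothelial, all 9 smooth muscle and all 7 airway epithelial genes had positive fitted differences. The medians were 1.76, 1.28, 1.15 and 1.04. Of 16 fast skeletal muscle genes none passed, 14 had negative fitted differences and the median was -1.635. The part of these lists in the differences of the cardiac muscle genes was not tested.

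**Figure D2:**
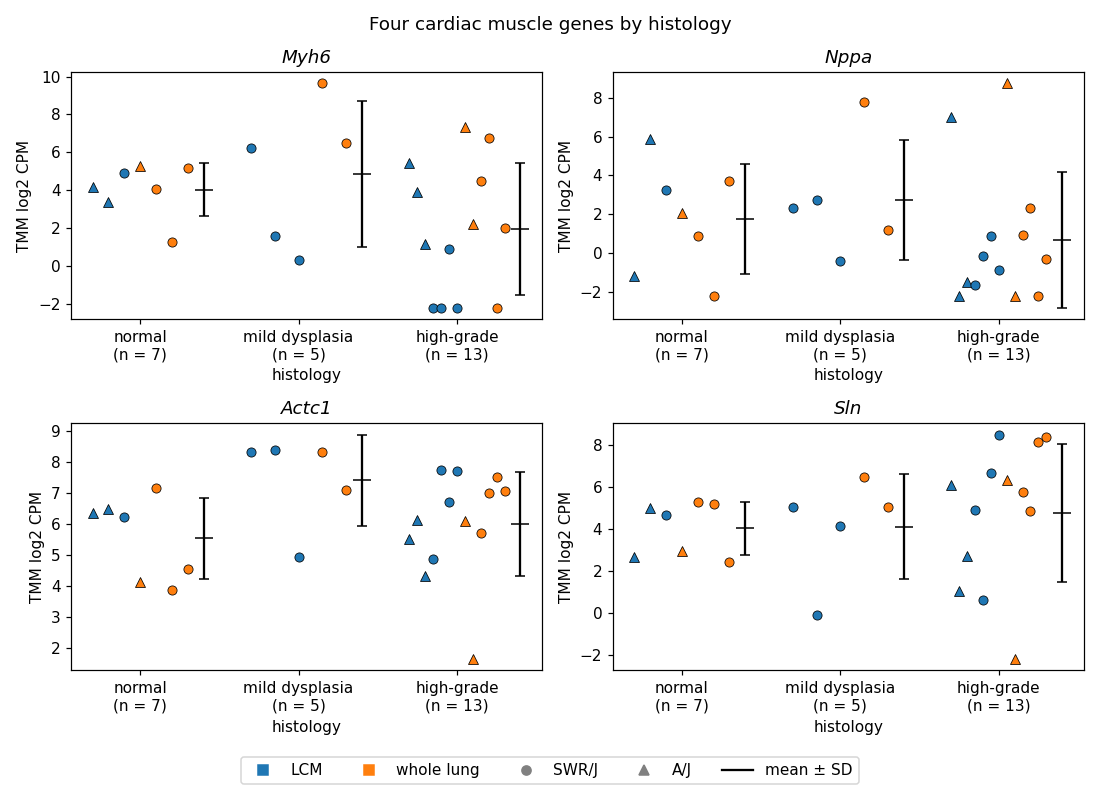
Level of Myh6, Nppa, Actc1 and Sln (TMM log2 CPM, vertical axes) in every sample by histology (horizontal axes); color gives the sample type, the marker the strain, and black bars the mean ± SD of each group. The groups overlap in each panel, and 4 libraries at 5.87 or more of Nppa stand above the other 21, which reach 3.72.

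High-grade samples were compared with normal to ask the same of advanced lesions. 0 of the 10 genes passed the test and 0 had an unadjusted p under 0.05, against 0.0192% called and 9.14% under 0.05 among all genes. The median of Myh6 over the 13 high-grade samples was 1.97 log2 CPM, and the range was -2.22 to 7.32. The gene had no count in the 3 moderate/severe dysplasia SWR/J LCM samples and in moderate/severe dysplasia SWR/J whole lung replicate 3. It reached 1775 counts in moderate/severe dysplasia A/J whole lung replicate 1, 850.7 in moderate/severe dysplasia SWR/J whole lung replicate 2 and 703.7 in moderate/severe dysplasia A/J LCM replicate 1. The high-grade group thus held both the lowest values of Myh6 and several above the normal range, with a mean of 1.94 ± 3.48 (SD, n = 13).

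The remaining genes behaved alike in having a wide spread. Tnnt2 ran from 2.34 to 7.201 (median 3.66) in high-grade samples, with a fitted log2 difference of 0.97 (SE 0.75). Ryr2 ran from -1.41 to 3.98 (median 1.14), with 0.72 (SE 0.72). Myl7, which ran from -0.81 to 7.17 (median 3.03), had a negative fitted difference, -0.68 (SE 1.08), whereas those of the other 9 were positive. The medians ran the other way, and 9 of the 10 genes, all but Sln, had a lower median in high-grade than in normal samples. The fitted signs were unstable, since 9 of the 10 genes changed sign under at least 1 alternative. Sln had the largest, 1.69 (SE 1.11), and ran from -2.22 in CIS A/J whole lung replicate 1 to 8.49 in moderate/severe dysplasia SWR/J LCM replicate 3 (median 5.75, against 4.65 in normal samples). Over the 10 genes the median fitted difference was 0.28, against -0.01 over all genes. These values do not show that high-grade and normal samples are alike, since the SE reached 1.89 log2 units for Nppa.

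With a single slope over ordered grades, in which normal scores 0 and CIS or SCC tumor 4, 0 of the 10 genes passed and 0 had an unadjusted p under 0.05, against 0.262% called among all genes. The slope was negative for 8 of the 10 and its median was -0.27 log2 units per step, against -0.02 over all genes. The effect of high-grade histology was also tested for a difference between whole lung and LCM and between strains. 0 of the 10 genes passed in either interaction. Among all genes 0.0% passed in the interaction with sample type, where 7.15% had an unadjusted p under 0.05, and 0.0% in the interaction with strain, where 4.34% did. Median TIN itself was associated with 7.31% of all genes and with 0 of the 10. The slope on median TIN was positive for 8 of the 10. Its median was 0.487 log2 units per SD of median TIN, against 0.008 over all genes. 0 of the 10 had an unadjusted p under 0.05 in edgeR, against 25.7% of all genes.

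The comparison of whole lung with LCM asked whether sections that include all structures of the lung hold more cardiac muscle RNA than dissected tissue. 9 of the 10 genes had a positive fitted difference, and 0 of 10 passed the test, against 14.6% of all genes. Myh6 ran from -2.22 to 6.25 log2 CPM in the 13 LCM samples (median 1.58) and from -2.22 to 9.66 in the 12 whole lung samples (median 4.82). 10 of the 12 whole lung samples lay above the LCM median. The fitted log2 difference was 2.23 (SE 0.997), with an edgeR adjusted p of 0.133. Mybpc3 had a median of -0.63 in LCM and 2.03 in whole lung, where 11 of 12 samples were above the LCM median, with a fitted difference of 1.88 (SE 0.83) and an edgeR adjusted p of 0.131. Ryr2, with medians of 1.41 and 1.43, had 1.16 (SE 0.55), and these 3 genes had an unadjusted p under 0.05, against 30.3% of all genes.

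Troponins and light chains had smaller or less certain differences between sample types. The fitted log2 differences were 1.495 (SE 0.79) for Tnni3, 1.18 (SE 0.60) for Tnnt2, 1.16 (SE 0.86) for Myl7, 0.93 (SE 0.64) for Myl4 and 1.61 (SE 1.24) for Nppa. Actc1 had a negative value of -0.50 (SE 0.52), and Sln had 0.43 (SE 0.83). Every gene was present in LCM tissue as well. Mild dysplasia SWR/J LCM replicate 1 had 240 counts of Myh6 and moderate/severe dysplasia A/J LCM replicate 1 had 1531 of Myl7. When mild dysplasia SWR/J LCM replicate 1 was left out, 2 of the 10 genes passed the test. These were Myh6 with a log2 difference of 3.05 (adjusted p 0.0328) and Mybpc3 with 3.08 (adjusted p 0.0112), and limma-voom called the same 2 genes with all samples (3.15 and 2.86).

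Some genes of related function passed the test between the sample types, where 14.6% of all genes did. Of 21 other sarcomere and cardiac structure genes and of 13 genes of cardiac metabolism and energy, 0 passed. Of 9 calcium-handling genes 1 was higher and 1 lower in whole lung. Higher were also 1 of 6 channel and gap junction genes and 1 of 2 ventricular markers. Gja5, the connexin of atrial muscle that endothelium also expresses, was higher in whole lung (log2 difference 2.07, SE 0.56, edgeR adjusted p 0.0172), and so was Cacna1c, the L-type calcium channel (1.46, SE 0.47, 0.0416). Myh7, the slow and beta cardiac myosin heavy chain, had 1.80 (SE 0.56, 0.0346), and it shares reads with Myh6. Tbx5 (1.93, SE 0.51, 0.0154) and Srf (0.46, SE 0.12, 0.0149) rose among 6 transcription factors tested. Asph was lower (-0.96, SE 0.23, 0.00916). Mybphl had 2.06 (SE 0.97) and missed the threshold at 0.157. In the same comparison, in which 14.6% of all genes were called, 8 of 8 endothelial genes were higher in whole lung, for example Cldn5 (2.70, SE 0.48, 0.00205) and Cdh5 (2.28, SE 0.39, 0.00161). Of 6 alveolar epithelial genes 3 were higher (Sftpc, Lamp3 and Ager), and of 7 airway epithelial genes 2 were lower (Cyp2f2 and Epcam). None of 9 smooth muscle genes passed, and 8 had negative fitted differences, with a median of -0.50. The summed endothelial list ran from 149.9 to 1580 CPM in LCM and from 207.5 to 2022 CPM in whole lung, and its part in the cardiac muscle genes was not tested.

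**Figure D3:**
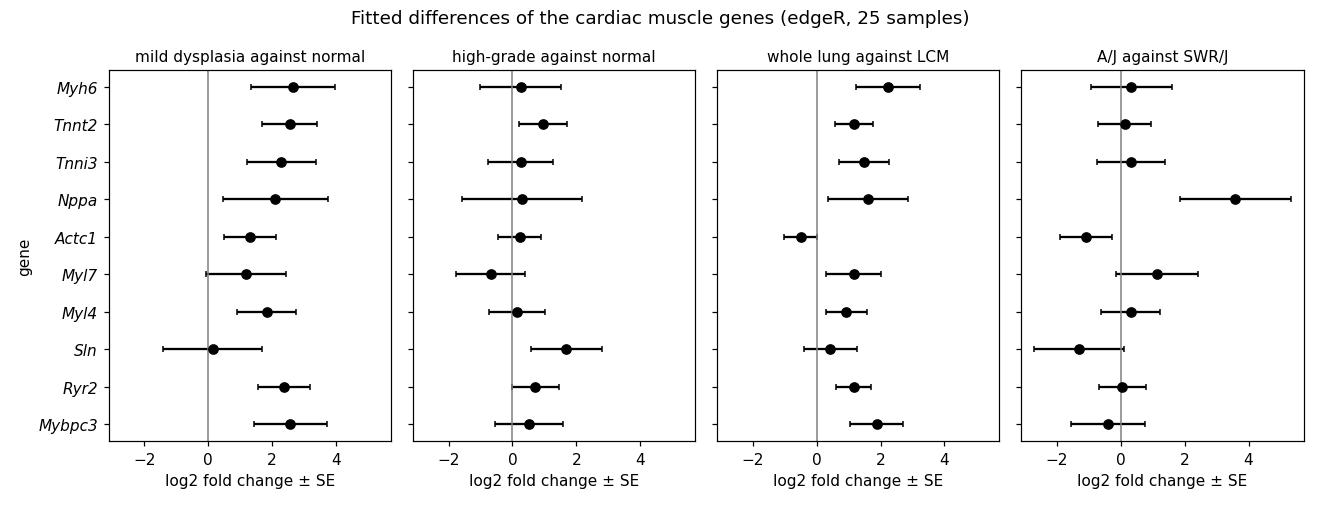
Fitted log2 fold change ± SE (horizontal axes, edgeR over 25 samples) of each cardiac muscle gene (vertical axis) in 4 comparisons. The 10 values lie at or above 0 in mild dysplasia and 9 of 10 lie above 0 in whole lung, and 0 of the 10 genes passed the threshold in any panel.

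Between the strains 0 of the 10 genes passed the test, against 0.992% of all genes, and 0 had an unadjusted p under 0.05. Nppa had the largest fitted difference, 3.58 log2 units higher in A/J than in SWR/J (SE 1.74, edgeR adjusted p 0.289). In the 8 A/J samples its lowest, median and highest levels were -2.22, 0.43 and 8.77, and in the 17 SWR/J samples they were -2.22, 0.89 and 7.81, so the medians lay in the other order. Without moderate/severe dysplasia A/J whole lung replicate 1 the fitted difference was -0.12. Without median TIN as a covariate it was 5.24, with an adjusted p of 0.0228. Actc1 had a fitted difference of -1.09 (SE 0.81) and Sln of -1.31 (SE 1.40). Fast skeletal muscle genes, none of which passed, had a median of -2.56 over 16 genes in this comparison.

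The amount of Nppa relative to Myh6 varied widely. Nppa had 4883 counts in moderate/severe dysplasia A/J whole lung replicate 1, 3986 in mild dysplasia SWR/J whole lung replicate 1, 2091 in moderate/severe dysplasia A/J LCM replicate 1 and 1002 in normal A/J LCM replicate 2, the sample whose labels disagree. In the other 21 samples it stayed at or under 100 counts. The ratio of Nppa to Myh6 counts was taken in the 14 samples with at least 100 counts of Myh6. It was 2.75 in moderate/severe dysplasia A/J whole lung replicate 1, 2.97 in moderate/severe dysplasia A/J LCM replicate 1 and 5.65 in normal A/J LCM replicate 2. The other 3 A/J samples had ratios of 0.103, 0.0125 and 0, and the 8 SWR/J samples ranged from 0.0226 to 0.364 with a median of 0.0893. The A/J samples therefore lay on both sides of the SWR/J range. The light chains were steadier, and the ratio of Myl7 to Myl4 counts in 15 samples with at least 100 counts of Myl4 ran from 0.135 to 1.20 with a median of 0.559.

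All of these genes but Actc1 and Sln rose and fell together from library to library. For Myh6 and Mybpc3, Pearson's r was 0.88 over the 25 samples (Spearman's rho 0.899), with a permutation p of 1e-05, the smallest that the permutations could give, and 0.0001 after adjustment over 165 pairs. It was 0.907 without the 2 samples farthest from the median, 0.751 within LCM and 0.955 within whole lung. Tnni3 and Myl4 had the highest coefficient, r = 0.902 (rho 0.928, adjusted permutation p 0.0001), with 0.813 within LCM and 0.974 within whole lung. Over the 28 pairs that leave out Actc1 and Sln, r ran from 0.534 (Myl7 and Ryr2, adjusted permutation p 0.0197) to 0.902 with a median of 0.766. The median was 0.694 within LCM, 0.86 within whole lung, and 0.728 without the 2 farthest samples. All 28 pairs had an adjusted permutation p under 0.05. The pairs share libraries, and Actc1 and Sln were set apart after their values were seen.

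Actc1 and Sln followed the other 8 genes poorly. The median r of their 16 pairs with those genes was 0.244, and 1 of the 16, Actc1 with Tnnt2 (r = 0.506, rho 0.443), had an adjusted permutation p under 0.05, at 0.034. That pair had r = 0.435 without the 2 farthest samples. For Myh6 and Sln r was 0.022 (rho 0.04, adjusted permutation p 0.939). Both genes are active outside cardiac muscle, since sarcolipin is also made in skeletal muscle and cardiac actin in developing and regenerating skeletal muscle and in some smooth muscle.

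Sln instead followed markers of skeletal muscle. With Myl1, a light chain of fast fibres, r was 0.819 (rho 0.792, adjusted permutation p 0.0001), 0.743 without the 2 farthest samples, 0.852 within LCM and 0.837 within whole lung. With Myl3, the slow and ventricular light chain, r was 0.786 (rho 0.815, adjusted permutation p 0.0001), and with Acta1, the skeletal alpha actin, 0.726 (rho 0.756, adjusted permutation p 0.00022). Of the 12 skeletal and ventricular markers tested with Sln, 10 pairs had an adjusted permutation p under 0.05. Myh6 correlated negatively with Tnni2, the fast troponin I (r = -0.563, rho -0.597, adjusted permutation p 0.0138), and positively with Myh7 (r = 0.744, rho 0.802, adjusted permutation p 0.00025), the gene with which it shares sequence. The highest correlation of Actc1 among these markers was with Tnnt1, the slow troponin T (r = 0.508, rho 0.407, adjusted permutation p 0.0357), and 0.366 without the 2 farthest samples.

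**Figure D4:**
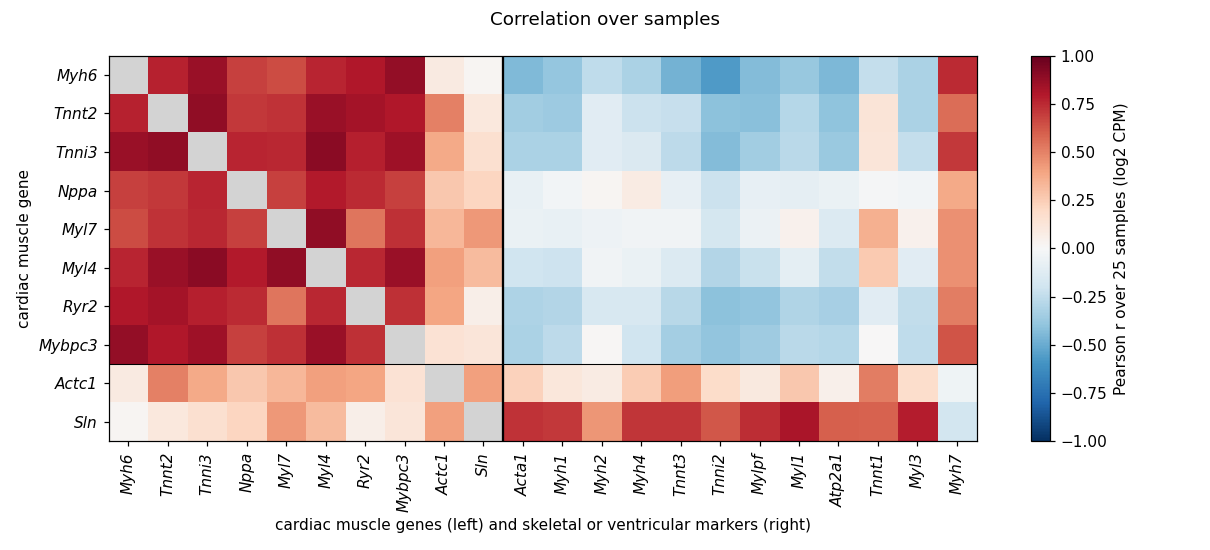
Pearson's r over 25 samples (color) between each cardiac muscle gene (rows) and the other cardiac muscle genes (left block) and 12 skeletal or ventricular markers (right block). The 8 upper rows form a red block on the left, and the bottom row, Sln, is red on the right, where Myl1 has r = 0.819.

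The libraries with the most Sln were those with the most skeletal muscle RNA. The summed level of 16 fast skeletal genes was 14030 CPM in moderate/severe dysplasia SWR/J whole lung replicate 3, 13520 CPM in severe dysplasia SWR/J whole lung replicate 1 and 13470 CPM in moderate/severe dysplasia SWR/J LCM replicate 3. In the other 22 samples it ran from 14.7 to 4156 CPM. Sln was at 8.13, 8.39 and 8.49 log2 CPM in those 3 libraries, its 3 highest values. Actc1 had its highest level, 8.38, in mild dysplasia SWR/J LCM replicate 2, and was at 7.502, 7.08 and 7.70 in the 3 libraries. Myh6 was at -2.22, 1.97 and -2.22 in the same libraries. The counts were 969, 3390 and 2230 for Sln against 0, 37.5 and 0 for Myh6. All 3 libraries were high-grade SWR/J samples, and the medians of the fast skeletal sum were 246.3 CPM in normal, 67.3 CPM in mild and 1223 CPM in high-grade samples. 0 of the 16 genes passed in that comparison, although all 16 had positive fitted differences with a median of 1.64. Over the 25 samples, the median r with the skeletal and ventricular markers was 0.709 for Sln and 0.182 for Actc1. How much of the Sln and Actc1 reads came from skeletal muscle was not tested.

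**Figure D5:**
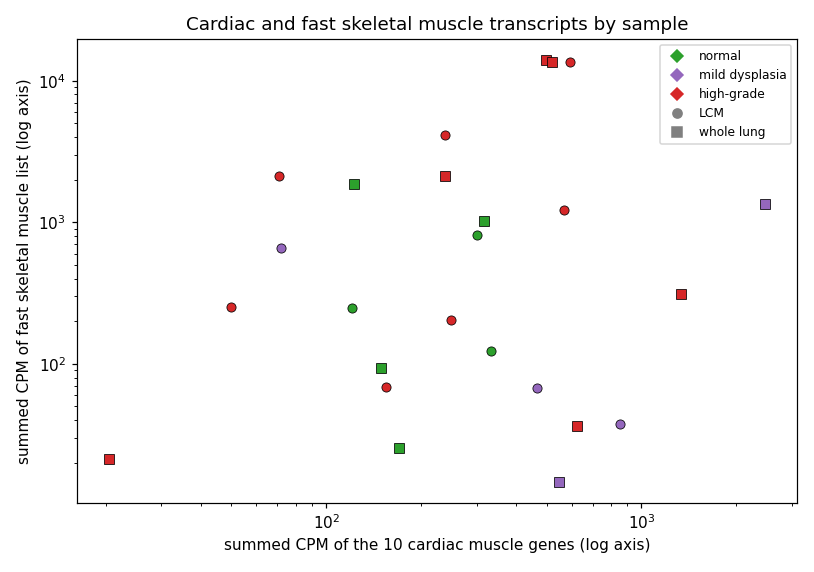
Summed CPM of 16 fast skeletal muscle genes (vertical log axis) against that of the 10 cardiac muscle genes (horizontal log axis) in 25 samples; color gives histology and the marker the sample type. The 3 high-grade libraries with 13470 to 14030 CPM of fast skeletal RNA have 497.1 to 592.7 CPM summed over the 10 genes, of which Actc1 and Sln give 90.4% to 95.7%, and the sample with the highest sum of the 10 (2460 CPM) is a mild dysplasia whole lung section with 1352 CPM.

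Outside the list, the 15 entries most like the mean z-score of the 10 held 7 from the lists of cardiac genes, 2 of which are the same gene, and 8 from no list. Over the 25 samples and among 15620 genes, r was 0.921 for Mybphl, 0.916 and 0.841 for the pair of overlapping entries of Tnnc1, the troponin C of cardiac and slow muscle, and 0.835 for Gm13054. The last is annotated on the strand opposite to Nppa and overlaps it, so that reads from both cannot be told apart here. Mapk10, a stress-activated kinase (0.802), Fndc5, the precursor of irisin (0.773), Pln (0.72) and Col15a1, a basement membrane collagen (0.709), followed. Sept3 (0.684), Ankrd1 (0.683), Casq2, the cardiac calsequestrin (0.679), Popdc2 (0.672), Axin2 (0.669) and Znfx1 (0.667) were also among the 15 highest. Within LCM the coefficients of Mybphl (0.882) and of the first Tnnc1 entry (0.931) stayed high, whereas that of Znfx1 (0.342) was lower than within whole lung (0.823). The ranking picks the highest of many genes and carries no test.

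Promoters were searched for motifs of cardiac transcription because 8 of the genes varied together. RefSeq promoters on GRCm38.p6, from 250 bases before to 50 bases after the start, were found for 9 of the 10 genes, with 2 starts for Tnnt2, and Sln had no entry. The motifs were the GATA site (AGATAA or AGATAG or TGATAA or TGATAG), the MCAT element (CATTCC), the T-box site (AGGTGT), the CArG box bound by serum response factor and the MEF2 site, each on both strands. The promoters of Myh6, Mybpc3, Nppa and Myl7 are shown because the first pair had one of the closest correlations and the other 2 are atrial genes, with all motif matches in capitals. The 250 bases before the start are printed, which hold every match found, from chr14:54966608-54966857 (minus strand), chr2:91117894-91118143 (plus), chr4:148000472-148000721 (plus) and chr11:5898783-5899032 (minus).
Myh6: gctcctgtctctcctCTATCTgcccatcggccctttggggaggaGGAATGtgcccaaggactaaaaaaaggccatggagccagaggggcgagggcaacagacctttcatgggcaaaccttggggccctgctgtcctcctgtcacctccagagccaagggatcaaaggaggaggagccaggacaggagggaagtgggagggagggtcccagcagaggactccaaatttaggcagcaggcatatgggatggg
Mybpc3: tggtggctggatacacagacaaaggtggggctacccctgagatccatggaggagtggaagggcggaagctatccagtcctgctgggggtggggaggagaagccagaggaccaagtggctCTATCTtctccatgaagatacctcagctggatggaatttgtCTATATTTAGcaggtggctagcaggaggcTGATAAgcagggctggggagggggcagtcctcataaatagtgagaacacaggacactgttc
Nppa: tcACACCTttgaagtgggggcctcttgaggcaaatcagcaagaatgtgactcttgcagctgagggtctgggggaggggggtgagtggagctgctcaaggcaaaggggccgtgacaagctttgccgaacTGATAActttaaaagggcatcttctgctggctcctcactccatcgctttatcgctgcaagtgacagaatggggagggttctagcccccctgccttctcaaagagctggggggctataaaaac
Myl7: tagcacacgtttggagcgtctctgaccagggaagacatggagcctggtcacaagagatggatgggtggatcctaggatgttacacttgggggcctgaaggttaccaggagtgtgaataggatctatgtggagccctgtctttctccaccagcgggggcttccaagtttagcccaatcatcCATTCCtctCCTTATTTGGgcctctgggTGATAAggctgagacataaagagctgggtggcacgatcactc
A GATA match was found in 5 of the 9 genes (all 4 shown and Tnnt2), against 29.76% of all 32851 promoters. A CArG box occurred in 2 (Myl7 and Actc1), against 1.63% of promoters, an MCAT element in 3 (Myh6, Tnnt2 and Myl7), against 14.66%, a T-box site in 2 (Nppa and Tnni3), against 13.74%, and a MEF2 site in 1 (Mybpc3), against 3.19%. In Myl7 the MCAT, CArG and GATA matches began at positions -70, -61 and -42 from the start. The promoters of Myl4 and Ryr2 held none of the 5 motifs in this window.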

How the data were processed

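RNA of 40 fresh frozen mouse lung samples was measured. The authors used an Illumina TruSeq kit. Reads were trimmed (Trimmomatic) and aligned to the mm9 genome (STAR). The deposited values are expected counts for each gene from RSEM, without normalization. Gene symbols and positions came from GENCODE vM1 (NCBIM37), in which all 37310 identifiers were found. Groups came from the deposited labels, and the 25 samples labelled as passing quality control were compared.

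Expected counts were rounded for edgeR 4.0.16 (R 4.3.3), with TMM scaling, robust quasi-likelihood tests and 3 covariates (strain, sample type, median TIN). Genes with an interquartile range above 0 and a sum above 1 in log2 CPM (prior count 2) were tested (15630 genes). The threshold was a Benjamini-Hochberg adjusted p of 0.05. SEs were derived from the log2 fold change and the F statistic. Correlations used 100000 permutations, two-sided, adjusted over 165 pairs (Python 3.11.15, numpy 2.4.6, scipy 1.17.1). The tests were checked on simulated counts. The alternatives were DESeq2 1.42.0, limma-voom (limma 3.58.1), RLE size factors, other gene filters and covariates, all 40 samples, subsets of samples, and leaving out each sample. The SD over samples also contains the counting error.

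The 10 genes and the gene lists were chosen with earlier results of these data known. Named from the lists were genes that passed the threshold and, for sample type, the 4 with the smallest p of each list, and the 15 genes most correlated with the mean z-score (mean log2 CPM of 0 or more). 1 of these genes is not reported here. The 25 samples had expected counts of between 2667387 and 16534728, and the 15 that failed between 17051 and 1965373.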

Additional observations from a re-analysis of the deposited data

Results flagged for a closer look

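Of 50 sets of 4 to 10 samples examined (each gene within a histology or within a histology and sample type), 5 held a sample far from the others, and chance alone would flag about 1 in 20. Nppa was at 7.004 log2 CPM in moderate/severe dysplasia A/J LCM replicate 1, and the nearest other high-grade LCM sample was at 0.87. Actc1 was at 1.62 in CIS A/J whole lung replicate 1, where the nearest other high-grade whole lung sample was at 5.69. In the same library Sln had no count (-2.22), with the nearest at 4.84. Myl7 was at -0.77 in normal A/J LCM replicate 1, with the nearest normal sample at 3.62. Ryr2 was at -0.63 in normal SWR/J whole lung replicate 2, with the nearest at 1.06.

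The libraries that failed quality control entered no comparison in the report. Their expected counts added up to 17051 to 1965373. The 10 genes together, scaled to each library's total without TMM, came to 89.2 to 317.7 CPM in the 3 normal libraries that failed. Of the 12 failed libraries from treated animals, 5 lay above that range. The values were 1068, 938.4 and 498.4 CPM in moderate/severe dysplasia SWR/J LCM failed replicates 1, 2 and 4, 751.8 CPM in severe dysplasia SWR/J LCM failed replicate 2 and 584.1 CPM in severe dysplasia SWR/J whole lung failed replicate 1. No test was made on these libraries.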

How the results depend on the processing

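The number of the 10 genes called was 0 in each of the 7 comparisons and stayed at 0 in most alternatives. For mild dysplasia it was 2 with DESeq2 (Tnnt2 and Ryr2) and 1 without median TIN (Ryr2, adjusted p 0.0392). For whole lung against LCM it was 2 with limma-voom (Myh6 and Mybpc3), and for strain it was 1 without median TIN (Nppa). Leaving out 1 sample gave 0 to 2 genes for mild dysplasia and 0 to 2 for sample type. For mild dysplasia, 2 genes (Tnnt2 and Ryr2) passed without moderate/severe dysplasia SWR/J whole lung replicate 2 or without CIS A/J whole lung replicate 1, Tnnt2 alone without mild dysplasia SWR/J LCM replicate 3, and Ryr2 alone without severe dysplasia SWR/J LCM replicate 1, normal A/J LCM replicate 1 or SCC tumor A/J LCM replicate 1. The number of all genes called in mild dysplasia was 1945, 3653 with DESeq2, 2901 with limma-voom, 1 with all 40 samples, 0 without strain and sample type as covariates, and 995 without the 2 samples whose labels disagree.

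In at least 1 alternative the sign of the fitted log2 difference turned for 9 of the 10 genes in high-grade against normal, 6 in mild dysplasia, 1 in whole lung against LCM and 9 in A/J against SWR/J. Leaving out 1 sample alone turned 6, 4, 1 and 7. For the genes whose fitted values are given in the report, the cases were these. For high-grade samples, Tnnt2 was -0.68 and Ryr2 -1.38 within LCM alone, and Myl7 was 0.48 with all 40 samples, 0.14 within whole lung alone, and -1.40 to 0.07 (0.065) leaving out 1 sample. For mild dysplasia within LCM alone, Myh6 was -0.19, Nppa -0.27, Actc1 -0.17, Myl7 -0.56 and Sln -1.56. Within whole lung alone, Myh6 was -0.16, Nppa -2.62 and Mybpc3 -0.40. Sln was -0.145 without median TIN and -0.135 with all 40 samples. Leaving out 1 sample, the mild difference spanned -0.37 to 4.33 for Myh6, -0.81 to 2.69 for Myl7, -1.53 to 3.55 for Mybpc3 and -0.375 to 0.88 for Sln. Nppa in whole lung against LCM was -0.92 with all 40 samples and -0.835 to 2.39 leaving out 1 sample. Nppa in A/J against SWR/J was -1.13 with limma-voom, -0.015 with all 40 samples and -0.12 to 4.61 leaving out 1 sample, and Actc1 was 0.96 within LCM alone. The cause was not tested.

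No paired analysis was possible because the labels carry no replicate numbers and the numbers used here only name samples. Most of the 25 samples differ in more than 1 factor, and all mild samples are SWR/J. The SE of each of the 10 genes exceeded 0.5 log2 units in the comparisons of histology groups, sample type and strain. Differences well above 0.5 log2 units could therefore go uncalled, as the fitted 3.58 for Nppa in A/J against SWR/J did.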
